A study of Mus musculus with 74 samples.

Results

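Among the genes that lose expression when mouse ES cells are deprived of LIF, a small set kept at least 70% of its mean LIF level when endogenous Nanog was induced in place of LIF. LIF is the cytokine that sustains self-renewal of mouse ES cells in serum. It binds a receptor made of Lifr and gp130, activates JAK kinases and drives STAT3 to its target genes, among them the naive pluripotency factors Klf4 and Tfcp2l1. Nanog is a homeodomain factor of the same network, known for sustaining ES cells without LIF when it is overexpressed.

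The set was chosen from RNA-seq of Nanog SunTag cells by 3 criteria on group means of normalised counts (estimated reads of a gene divided by a size factor of the library). A gene needed a mean of at least 100 in LIF without doxycycline (Dox), at most 25% of that mean without LIF and Dox, and at least 70% of it without LIF and with Dox. Of 37620 genes in the tables, 10948 reached the first level and 497 also met the second criterion. Of these LIF-dependent genes, 33 met the third (6.64%), and the 464 others did not. Nanog is itself one of the 33, because the system induces it, and it was set apart wherever the set is summarised by a median. The criteria used the Nanog SunTag libraries only, so values in those libraries are given as a description and were not tested. Tests were made in cells that did not enter the criteria.

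SunTag cells are E14Tg2a ES cells carrying Dox-inducible moieties of a CRISPR activator, a dCas9 with GCN4 epitopes and an antibody fused to GFP and VP64. Nanog SunTag cells express a guide RNA to the Nanog promoter, and are represented by 1 clone from each of a pair of parental clones, C1 and C2. They were lysed at day 3 in LIF (10 ng/mL) or without it, with or without Dox (1 µg/mL): +LIF −Dox (3 libraries), +LIF +Dox (2), −LIF −Dox (3) and −LIF +Dox (3). Nanog/Otx2 SunTag cells carry an Otx2 guide RNA in addition, and were grown in the same 4 conditions (3, 4, 4 and 4 libraries). They were derived from the Nanog SunTag clones, 1 clone from each (C1ON3 and C2ON3), so they are other cultures but not other founder lines, and Dox induces Nanog and Otx2 together in them. 44iN cells are Nanog-null ES cells with a Dox-inducible Nanog transgene. They were sequenced in LIF, with Dox (1 µg/mL) and 24 h after Dox was removed (2 each), and as a long-term culture kept without Dox under G418 selection (2). Wild-type Tg2a cells were grown in serum (FCS) and LIF (3). Nothing states that libraries of a clone are separate cultures, so the p-values measure the spread between these libraries.

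The guides are shown because the whole comparison rests on which promoter was activated, with the adjoining PAM of the genome in capitals. The Nanog guide matched mm9 once on chromosome 6, on the + strand at chr6:122657269-122657288, and its last base lay 219 bases before the annotated start of Nanog. The Otx2 guide matched once on chromosome 14, on the − strand at chr14:49282649-49282668. It overlapped no annotated exon of Otx2, and lay 102 bases upstream of the nearest of 7 annotated transcript starts.
Nanog guide: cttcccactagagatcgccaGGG
Otx2 guide: aatgtagagcgtgcatttggAGG
The 300 bases before the Nanog start (mm9, + strand, chr6:122657207-122657506) are printed with the guide match and its PAM in capitals.
Nanog upstream: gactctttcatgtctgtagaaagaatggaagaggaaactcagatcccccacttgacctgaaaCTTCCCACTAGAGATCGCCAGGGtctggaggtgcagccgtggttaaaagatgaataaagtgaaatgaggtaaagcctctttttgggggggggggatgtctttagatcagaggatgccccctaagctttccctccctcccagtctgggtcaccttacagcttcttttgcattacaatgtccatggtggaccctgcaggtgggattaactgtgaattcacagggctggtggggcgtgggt

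Nanog (ENSMUSG00000012396, chr6:122657507-122664651, + strand) was measured first, as the targeted gene. In Nanog SunTag cells it had 29487, 23345 and 21940.5 normalised counts in +LIF −Dox, and 93813 and 75226 in +LIF +Dox. Without LIF it had 7032, 8484 and 2234 without Dox, and 54732, 55641 and 45041 with Dox. All 3 −LIF +Dox libraries therefore lay above the +LIF −Dox libraries, and the mean was 208% of theirs. In Nanog/Otx2 cells the +LIF −Dox libraries had 20533, 18320.4 and 19586, the −LIF −Dox libraries 6867, 6327, 1974 and 2533, and the −LIF +Dox libraries 48470.5, 42572, 35379 and 31697. 44iN cells carry Nanog as a Dox-inducible transgene, and the counts do not separate its reads from those of the endogenous locus. Nanog counts in 44iN cells were 13366 and 18394 with Dox, 706 and 739 after 24 h without it and 276 and 228 after long-term culture. Tg2a cells had 19460.3, 20261 and 19420.2.

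Otx2, a driver of the exit from naive pluripotency and the second targeted gene, had 1062, 1059 and 736 normalised counts in +LIF −Dox Nanog/Otx2 cells. It had 3372, 4389, 3388 and 5148 in −LIF −Dox and 7347, 7311, 6827 and 7206 in −LIF +Dox. In Nanog SunTag cells without LIF it had 4254, 3534 and 4927 without Dox and 2248, 2484 and 2619.5 with Dox. Dox thus went with lower Otx2 in the cells with the Nanog guide alone, and with higher Otx2 in those carrying both guides (edgeR quasi-likelihood test, log2 fold change 0.85, standard error 0.13, Benjamini-Hochberg adjusted p = 0.000566).

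Over the 35 libraries, total estimated counts ran from 6107512 to 92244655, the lowest being the +LIF −Dox library of clone C2ON3. The cells were checked against marker lists. With LIF and without Dox, the summed normalised counts of 18 naive pluripotency genes outside the set ranged from 174892 to 193403 in Nanog SunTag cells, and without LIF and Dox from 53987.6 to 67579.5. Formative and primed markers, listed under 19 identifiers, went from 27837–33090.3 to 114231–139236. In Nanog/Otx2 cells 8 fibroblast markers summed to 301.5–486 in +LIF −Dox, 939.9–1171 in +LIF +Dox, 449–695 in −LIF −Dox and 831–1029 in −LIF +Dox. Of the 6 that could be tested in these cells, 4 rose on LIF withdrawal (24.6% of all genes rose), 5 with Dox in LIF (12.9%) and 3 with Dox without LIF (11.2%). Their part in the results was not tested. In bulk RNA, fewer expressing cells and less RNA per cell cannot be told apart.

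The LIF-dependent genes kept by Nanog included transcription and chromatin regulators, surface and adhesion molecules, signalling components, and enzymes. In Nanog SunTag cells the share of the +LIF −Dox mean left in −LIF −Dox ran from 1.25% (2810453I06Rik, whose counting is uncertain) to 24.8% over the 32 genes without Nanog, with a median of 19.4%. The share present in −LIF +Dox ran from 70.8% to 304%, with a median of 88.8%, and 12 of the 32 were above 100%. These values were fixed by the choice of genes. Near the thresholds, Pecam1 (70.8%) and Tex14 (71.8%) were just kept, and Myo1f (69.7%) and Gm5101 (67.7%) just were not. Ppap2a and B3galnt1, with 24.8% left without LIF each, stood just inside the second criterion, and Rasa4 (25.3%) and Epb4.9 (25.8%) just outside. Krt17 and Pla2g4e, with means of 108 and 109.7 in +LIF −Dox, were just above the level required, and Zc3h6 (99.2) and Lrrn2 (88.5) just below.

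Membership depended on single libraries. When each of the 9 libraries was left out, between 27 and 39 genes met the criteria. Without the +LIF −Dox library C1-1 there were 30, of which 16 were among the 33. Within clone C1 alone 17 of the 33 met both shares, and within clone C2 alone 16.

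**Figure D1:**
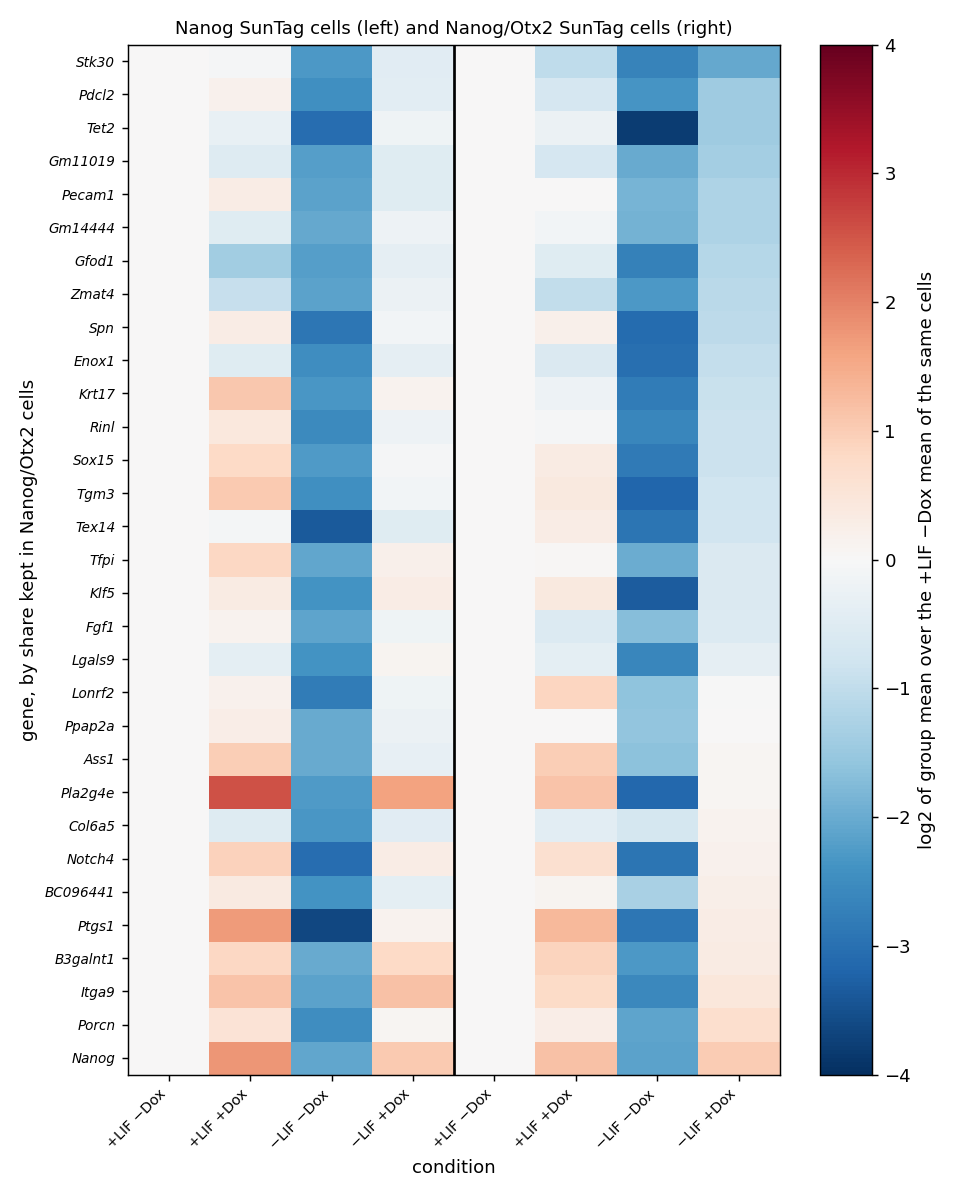
Group means of 31 of the 33 genes, each divided by the +LIF −Dox mean of the same cells and shown as log2 colour (blue lower, red higher), for Nanog SunTag cells on the left and Nanog/Otx2 SunTag cells on the right of the line. Genes are ordered by the share kept in −LIF +Dox Nanog/Otx2 cells, from Stk30 (24.4%) at the top to Nanog (203%) at the bottom. 2810453I06Rik, whose reads may be split between a pair of identifiers, is left out, as is a gene not reported here.

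Klf5 (ENSMUSG00000005148, chr14:99697910-99712624, + strand), a Krüppel-like factor of the naive network, had 2139, 3604 and 3020.0 normalised counts in +LIF −Dox Nanog SunTag cells. It had 498, 605 and 565 in −LIF −Dox, and 4082, 3104 and 3489.7 in −LIF +Dox. The libraries with Dox overlapped those in LIF and stood clear of those without Dox. Tet2 (ENSMUSG00000040943, chr3:133126643-133207354, − strand), an enzyme that oxidises 5-methylcytosine, had 8676, 4873 and 4765 in +LIF −Dox. It had 600.1, 1091 and 508 in −LIF −Dox, and 6514, 5788 and 4089.7 in −LIF +Dox. Its LIF libraries differed among themselves, C1-1 standing above the C2 libraries. Sox15, a SOX-family factor, had 96.4, 268 and 293 in +LIF −Dox, 58.6, 37.5 and 41.8 in −LIF −Dox, and 254, 237 and 152 in −LIF +Dox. Here it was C1-1 that stood below the other LIF libraries.

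Among receptors and adhesion molecules, Notch4 (ENSMUSG00000015468, chr17:34701213-34725448, + strand), a Notch receptor, had 415, 657 and 295 in +LIF −Dox, 48.0, 90.5 and 25.8 in −LIF −Dox and 659.7, 649 and 366 in −LIF +Dox. Itga9 (ENSMUSG00000039115, chr9:118515808-118810121, + strand), the α9 integrin subunit, had 552, 414 and 386 in +LIF −Dox, 107, 141 and 56.5 in −LIF −Dox and 1205, 1114 and 727 in −LIF +Dox. Its 3 libraries without LIF and with Dox were all above the LIF libraries, and the mean was 225% of theirs. Porcn, the acyltransferase that lipid-modifies Wnt ligands, stood at 105% of its LIF mean without LIF and with Dox, and Pecam1, the adhesion molecule CD31, at 70.8%. Porcn had 637, 717 and 406 in +LIF −Dox, 87.9, 133 and 95.9 in −LIF −Dox and 709.9, 768 and 371 in −LIF +Dox. In Pecam1 the 3 −LIF +Dox libraries, with 1864, 1666 and 1940.0, all lay below the lowest LIF library, which had 2222.

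A pair of enzymes of arachidonic acid metabolism were in the set. Ptgs1 (ENSMUSG00000047250, chr2:36085946-36107792, + strand), cyclooxygenase 1, had 147, 153 and 179 in +LIF −Dox, 13.0, 11.6 and 13.5 in −LIF −Dox and 173, 148 and 208 in −LIF +Dox. Pla2g4e (ENSMUSG00000050211, chr2:119992148-120071071, − strand), a cytosolic phospholipase A2, had 139, 88.8 and 101 in +LIF −Dox, 22.0, 27.1 and 19.7 in −LIF −Dox and 417, 353 and 232 in −LIF +Dox. It held the highest share of the set, 304%. Its reads may include those of Gm13997, which overlaps it on the same strand. Other enzymes were Ass1, the argininosuccinate synthase of the urea cycle (79.9% kept), Ppap2a, a lipid phosphate phosphatase (84.8%), B3galnt1, a glycosyltransferase (174%), and Tgm3, a transglutaminase (92.1%). Tfpi, an inhibitor of the coagulation pathway, was kept at 116%. The LIF libraries of Ass1 were uneven, with 3923 in C1-1 and 9323 and 9868 in the C2 libraries, against 5972, 5781 and 6711 in −LIF +Dox. Gm11019, a long intergenic RNA on chromosome 13 (chr13:98204925-98266960, + strand), was uneven in the other direction, with 15076 in C1-1 and 7246 and 8559 in C2. It had 1706, 2376 and 2672 in −LIF −Dox and 8324, 8076 and 5855 in −LIF +Dox.

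With LIF present, Dox went with a mean of 123% of the +LIF −Dox level at the median of the 32 genes in Nanog SunTag cells, against 91.3% for the other LIF-dependent genes. Pla2g4e was at 578%, Ptgs1 at 327%, Itga9 at 220%, Tet2 at 82.0% and Gfod1 at 38.2%. These shares have the +LIF −Dox libraries of the criteria as their denominator, and rest on 2 libraries with Dox.

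Nanog/Otx2 SunTag cells gave the tests of LIF withdrawal and of Dox. When LIF was withdrawn in the absence of Dox, the test found 31 of the 32 genes that passed the filter on low counts lower, Nanog among them, against 25.2% of the 15609 genes tested (edgeR's quasi-likelihood test, 15 libraries, adjusted p under 0.05). The median log2 fold change of the 31 without Nanog was −2.67, beside −2.49 for 457 other LIF-dependent genes and −0.01 for all genes tested. Tet2 fell by 3.83 on the log2 scale (standard error 0.18, adjusted p = 6.73e-10) and Klf5 by 3.36 (standard error 0.16, adjusted p = 1.18e-09). Pla2g4e fell by 3.23 (standard error 0.38, adjusted p = 6.36e-06). Col6a5, a collagen VI chain, was the gene that did not pass (−0.66, standard error 0.60, adjusted p = 0.392).

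With Dox in the absence of LIF, 29 of the 32 rose, against 11.2% of all genes tested, and the estimates of all 32 were positive. Nanog, raised by its own guide, is 1 of the 29, and without it 28 of 31 rose. The median of these 31 was 1.93, beside 0.87 for the other LIF-dependent genes, of which 240 of 457 rose. Pla2g4e rose by 3.25 (standard error 0.36, adjusted p = 3.09e-05), Ptgs1 by 3.17 (standard error 0.43, adjusted p = 0.00016) and Notch4 by 3.12 (standard error 0.21, adjusted p = 4.04e-07). Nanog, which the guide targets, rose by 3.19 (standard error 0.33, adjusted p = 1.7e-05). Per library, Notch4 had 109.7, 95.1, 56.6 and 55.6 normalised counts in −LIF −Dox and 601, 817, 739.6 and 575 in −LIF +Dox. Ptgs1 had 16.7, 17.2, 15.8 and 5.56, and 64.3, 147, 162 and 128. In both genes the 4 libraries with Dox lay above the 4 without. Those that did not pass were Gm11019 (0.69, adjusted p = 0.0542), Gm14444 (0.69, adjusted p = 0.324) and Col6a5 (0.88, adjusted p = 0.292).

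The level reached with Dox was then set against LIF. In Nanog/Otx2 cells −LIF +Dox held a median of 63.4% of the +LIF −Dox mean over 31 genes, Nanog and 2810453I06Rik left out, and 12 of these were at 70% or more. Over 462 other LIF-dependent genes the median was 34.6%. Of the 32 genes tested, 15 were lower in −LIF +Dox than in +LIF −Dox, against 21.7% of all genes, and 2 were higher, against 23.6%. The other 15 did not pass the test in either direction, which does not show that they were equal. Among 457 other LIF-dependent genes 376 were lower.

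Stk30, a MAP kinase-related kinase also named Mok, was kept least in these cells, at 24.4%. It had 571, 434 and 439.8 normalised counts in +LIF −Dox and 126, 129.6, 108 and 107 in −LIF +Dox, which fell by 2.04 on the log2 scale (standard error 0.17, adjusted p = 4.08e-07). Pdcl2, a phosducin-like protein, was kept at 37.2% (−1.46, standard error 0.30, adjusted p = 0.00125), and Tet2 at 37.4% (−1.41, standard error 0.16, adjusted p = 9.65e-06). For Tet2 the +LIF −Dox libraries had 5040.3, 6470.1 and 5962 and the −LIF +Dox libraries 1512, 2719, 2362 and 2123, with no overlap. Klf5 was kept at 67.0% (−0.57, standard error 0.15, adjusted p = 0.00737), with 2672, 2770.3 and 3199 in LIF and 1409.6, 2115, 2040.0 and 2156 without LIF and with Dox. The 15 lower genes were these 4 with Gfod1, Gm11019, Gm14444, Pecam1, Rinl, Sox15, Spn, Tex14, Tfpi, Tgm3 and Zmat4. Spn is the surface sialoglycoprotein CD43 and Tex14 a protein of germ cell bridges.

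Porcn was the higher gene besides Nanog. It had 705, 684 and 435 in +LIF −Dox, 161, 144, 121 and 139 in −LIF −Dox, and 1056, 1124, 917 and 764 in −LIF +Dox. The libraries with Dox all lay above those in LIF (0.64, standard error 0.23, adjusted p = 0.0341). Itga9 was kept at 138% (0.45, standard error 0.29, adjusted p = 0.217), Notch4 at 113% (0.18, standard error 0.20, adjusted p = 0.512) and Ppap2a at 101% (0.02, standard error 0.11, adjusted p = 0.896). Pla2g4e was kept at 106% (0.02, standard error 0.34, adjusted p = 0.972).

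**Figure D2:**
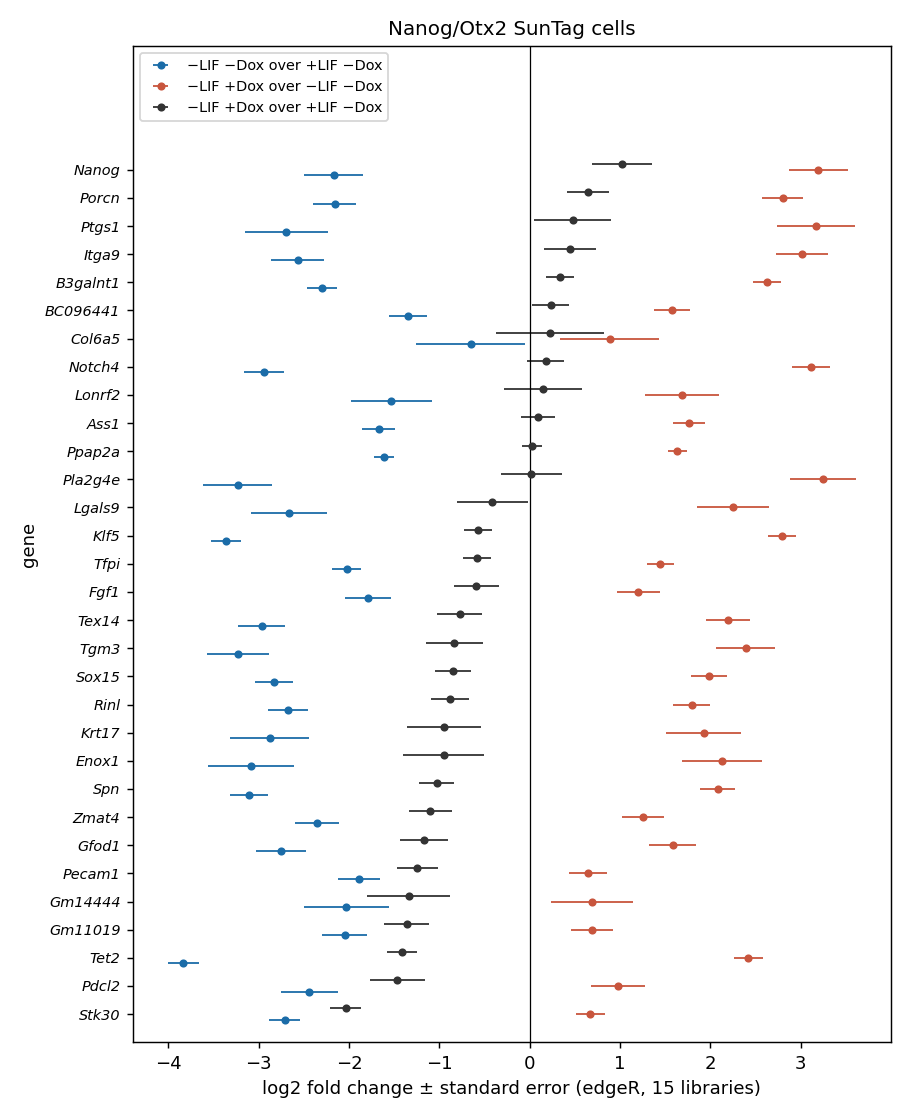
Log2 fold changes with standard errors in Nanog/Otx2 SunTag cells for 31 of the 32 genes tested, for LIF withdrawal (blue), Dox without LIF (red) and −LIF +Dox over +LIF −Dox (black). All blue points lie below 0 and all red points above it, and the black points run from −2.04 for Stk30 to 1.02 for Nanog.

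The level in −LIF +Dox Nanog/Otx2 cells was a median of 68.3% of the level in −LIF +Dox Nanog SunTag cells over the same 31 genes, from 32.5% to 165%, and 27 of them were lower. Nanog itself was at 76.3%, and the part of its lower level was not tested. The second set of values was part of the choice of genes, so no test was made. Library names of Nanog SunTag cells and of Nanog/Otx2 cells also begin differently. The effect of Otx2 in these cells cannot be told apart from that of the further cloning step or of a separate library series. Nor can it be told apart from the choice of genes by a high level in −LIF +Dox Nanog SunTag cells.

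The Dox response differed with LIF, as did the induction of the targeted genes (edgeR interaction term). Nanog rose by 3.19 with Dox without LIF and by 1.19 with LIF (difference 2.00, standard error 0.44, adjusted p = 0.0104). Otx2 rose by 0.85 without LIF and by 1.88 with LIF (difference −1.02, standard error 0.20, adjusted p = 0.00476). The part of these differences in the responses of the other genes was not tested. With LIF, Dox raised 6 of the 32 genes in Nanog/Otx2 cells (12.9% of all genes rose) and lowered 2 (10.0% fell). Those raised were Ptgs1, with 42.9, 77.6 and 185 normalised counts in +LIF −Dox and 207, 297, 253 and 235 in +LIF +Dox (1.47, standard error 0.43, adjusted p = 0.0232), Nanog (1.19, adjusted p = 0.0196), Pla2g4e (1.08, adjusted p = 0.0332), Ass1, B3galnt1 and Notch4. Ass1 had 3212, 3239 and 5523 without Dox and 7454, 7513, 8352 and 7942 with it, and B3galnt1 357, 391 and 431 against 635, 839.7, 736 and 719. Neither gene overlapped between the groups. Zmat4 (−1.01, adjusted p = 0.00754) and Stk30 (303, 216, 227 and 208 with Dox, adjusted p = 0.000768) were lowered. With clone and number as a replicate block 16 genes changed, 11 higher and 5 lower, and 18 with the number given in the column name of 1 library, 11 higher and 7 lower. Of all 15609 genes tested, the first block called 3332 higher and 3069 lower, and the second 3363 higher and 3156 lower. Without the +LIF −Dox library C1ON3-1, 4 of the 32 changed, with 2157 of all 15696 genes tested. Without C1ON3-2, 3 of the 32 changed, with 1962 of all 15709. The interaction of LIF and Dox was called for 26 of the 32, against 9.70% of all genes in either direction. In each of the 26 the signed fold change with Dox was higher without LIF, which need not be a larger response. Stk30 and Zmat4, both called, fell with Dox in LIF and rose with Dox without LIF. For Enox1 the Dox libraries had 362, 658, 1259.8 and 1387 without LIF, the C1ON3 libraries being the lower pair, against 87.3, 135, 251 and 404 without Dox. The estimates were highest for Lgals9, a galectin (2.69, standard error 0.56, adjusted p = 0.00671), Enox1, a cell surface oxidase (2.67, standard error 0.63, adjusted p = 0.0142), and Tet2 (2.62, standard error 0.23, adjusted p = 1.77e-05). Ass1, Col6a5, Gm14444, Lonrf2, Pecam1 and Ptgs1 did not pass. Among 457 other LIF-dependent genes the interaction was called for 208, also with a higher signed fold change without LIF.

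The naive pluripotency list of 21 genes holds Klf5, Tet2 and Nanog of the set. In Nanog/Otx2 cells 19 of the 21 fell on LIF withdrawal (25.2% of all genes fell). With Dox without LIF 14 rose, Nanog with its own guide among them (11.2% of all genes rose). In −LIF +Dox 16 stayed lower than in +LIF −Dox (21.7% of all genes) and 1, Nanog, was higher (23.6%). The following genes were picked after their values were seen. Esrrb rose by 3.03 with Dox without LIF and was still 1.85 lower on the log2 scale than in LIF (fold change −1.85, standard error 0.09, adjusted p = 6.97e-09). Klf4 was at −2.91 (standard error 0.25, adjusted p = 6.2e-07) and Tfcp2l1 at −3.14 (standard error 0.31, adjusted p = 2.15e-06) relative to LIF. Of 28 genes of the LIF, JAK and STAT3 list, none of which is in the set, 14 fell and 2 rose on LIF withdrawal, and 8 rose and 1 fell with Dox without LIF. Socs3, the feedback inhibitor that STAT3 induces, was at −5.59 (standard error 0.33) after LIF withdrawal and changed by −0.62 with Dox (adjusted p = 0.22). Formative and primed markers, 18 identifiers tested, rose in 16 cases on LIF withdrawal, where 24.6% of all genes rose. With Dox without LIF 2 rose, against 11.2% of all genes, and 5 fell, against 6.15% of all genes. Otx2, the target of the second guide, is 1 of the 2 that rose.

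44iN cells gave the response to Nanog in LIF from the side of its loss. In edgeR's quasi-likelihood test 0 genes of 14376 (0.00% higher) reached an adjusted p under 0.05, and at an unadjusted p under 0.05 12 of the 31 genes without Nanog were higher with Dox, against 4.86% of all genes, and Gm14444 was lower, against 2.25%. DESeq2's Wald test called 8 of the 32 as higher with Dox, Nanog included, against 0.786% of all genes. These were Nanog, Notch4, Itga9, B3galnt1, Ptgs1, Lonrf2, Pla2g4e and Ass1. Their estimates were followed over 10 other fits, 4 of them with a library left out. The log2 fold change ran from 4.29 to 5.13 for Pla2g4e, 2.89 to 3.71 for Ptgs1 and 2.92 to 3.34 for Itga9. It ran from 2.38 to 2.81 for Lonrf2, 1.77 to 2.50 for Notch4, 1.28 to 1.40 for B3galnt1 and 0.81 to 1.78 for Ass1. Each fit with a library left out has a group of 1 library, assumed to vary like the other group.

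Pla2g4e had 607 and 762 normalised counts with Dox and 38.4 and 20.7 at 24 h (log2 fold change 4.61, standard error 0.45, adjusted p = 0.156 in edgeR). Ptgs1 had 500.4 and 855 against 74.4 and 65.1 (3.38, standard error 0.43, adjusted p = 0.19). Itga9 had 1189 and 1229 against 175 and 127 (3.09, standard error 0.29, adjusted p = 0.156), and Lonrf2, a LON-domain RING finger protein, 414 and 297 against 57.6 and 65.1 (2.63, standard error 0.40, adjusted p = 0.235). In each of these genes both Dox libraries lay above both libraries without it. Notch4 had 221 and 355 against 74.4 and 59.2, and Sox15 42.6 and 91.8 against 14.4 and 17.7. The 24 h values rest on few estimated reads for Sox15 (6 in each library) and Pla2g4e (16 and 7).

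The remaining genes had smaller estimates. Tet2 had 15213 and 12466 with Dox and 12587 and 11766 at 24 h (0.28, standard error 0.22). Its libraries with and without Dox overlapped. Klf5 had 3452 and 4110.3 against 2073 and 2612, with no overlap (0.79, standard error 0.24). Estimates near 0 were those of Gfod1 (0.02, standard error 0.38), Fgf1, a fibroblast growth factor (0.06, standard error 0.28), and Enox1 (−0.07, standard error 0.21). Fgf1 had 468 and 462 with Dox and 521 and 432 without. Gm14444 was the gene with the lowest estimate, with 884 and 288 with Dox and 2244 and 1115 without (−1.43, standard error 0.58), followed by Col6a5 (−0.50) and Gm11019 (−0.34). The level at 24 h was a median of 71.1% of that with Dox over 31 genes, Nanog and 2810453I06Rik left out, and 97.3% over 463 other LIF-dependent genes.

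In long-term Nanog-null 44iN cells Nanog was lower than in Tg2a cells by genotype, and so were 12 of the 31 other genes by the test, against 5.26% of the 14937 genes tested. Without Nanog the median log2 fold change was −0.77, beside −0.52 for the other LIF-dependent genes, of which 112 of 459 were lower and 11 higher. Lonrf2 fell by 3.13 (standard error 0.38, adjusted p = 0.00539), Itga9 fell by 2.79 (standard error 0.26, adjusted p = 0.00259) and Pdcl2 fell by 2.67 (standard error 0.34, adjusted p = 0.00611). Itga9 had 83.4 and 62.0 normalised counts against 492, 435 and 503 in Tg2a cells, Lonrf2 15.8 and 11.6 against 93.5, 142 and 109, and Pdcl2 49.4 and 30.0 against 279, 235 and 209.7. The groups were far apart in each of these. Pla2g4e, Ptgs1 (−2.35), Notch4 (−2.07) and Sox15 were also called. Pla2g4e had 14.4 and 8.85 against 71.2, 58.5 and 76.3. Tet2 was at 5101 and 3481 normalised counts against 12221, 8909.9 and 8894 in Tg2a cells (−1.30, standard error 0.23, adjusted p = 0.0166). Stk30 had 146 and 108 against 357, 314 and 370.1, and Tex14 and B3galnt1 were lower too. Klf5, with 2388 and 2252 against 1875, 1908 and 2262, did not pass the test (0.13, standard error 0.14, adjusted p = 0.608). Without either long-term library Nanog alone was called, and without Tg2a library 2 the number was 8 with Nanog. The absence of Nanog and the difference between the lines cannot be told apart here.

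**Figure D3:**
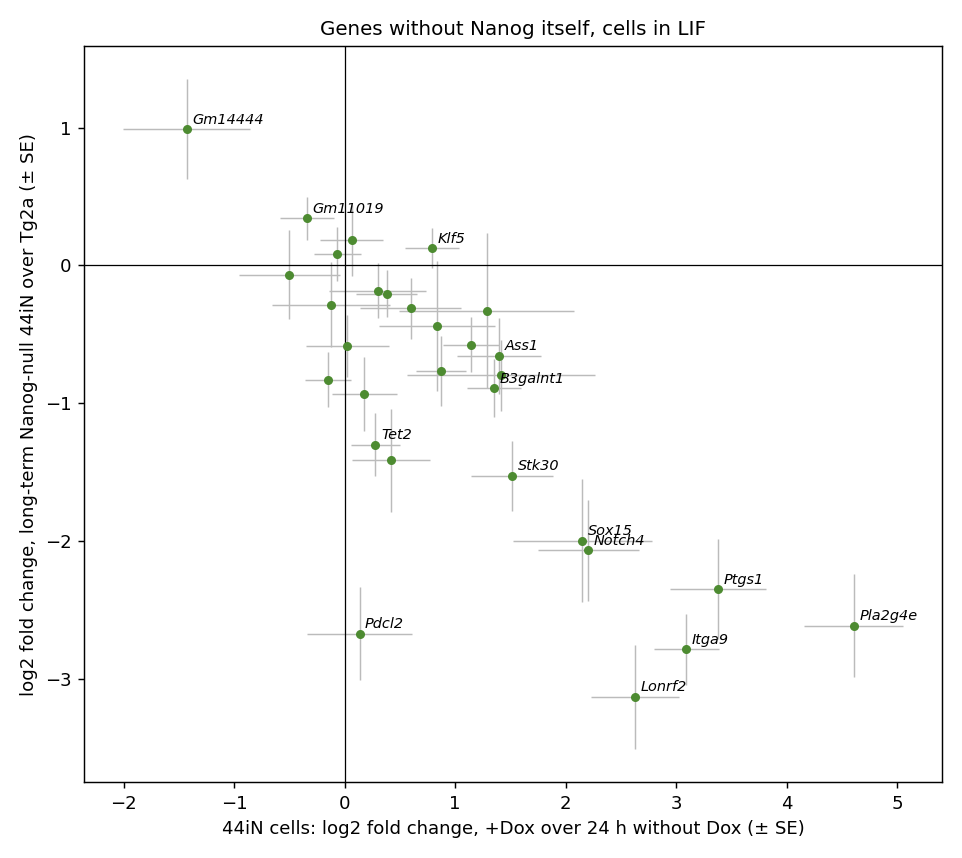
Log2 fold changes with standard errors of 30 genes, Nanog left out, in 44iN cells with Dox over 24 h without it (horizontal) and in long-term Nanog-null 44iN over Tg2a cells (vertical), from separate libraries. Pla2g4e, Ptgs1, Itga9, Lonrf2, Notch4 and Sox15 lie at the lower right, from 2.15 to 4.61 on the horizontal axis, Pdcl2 lies low near the vertical line (0.13 and −2.67), and Klf5 (0.79 and 0.13) lies just above the horizontal line.

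**Figure D4:**
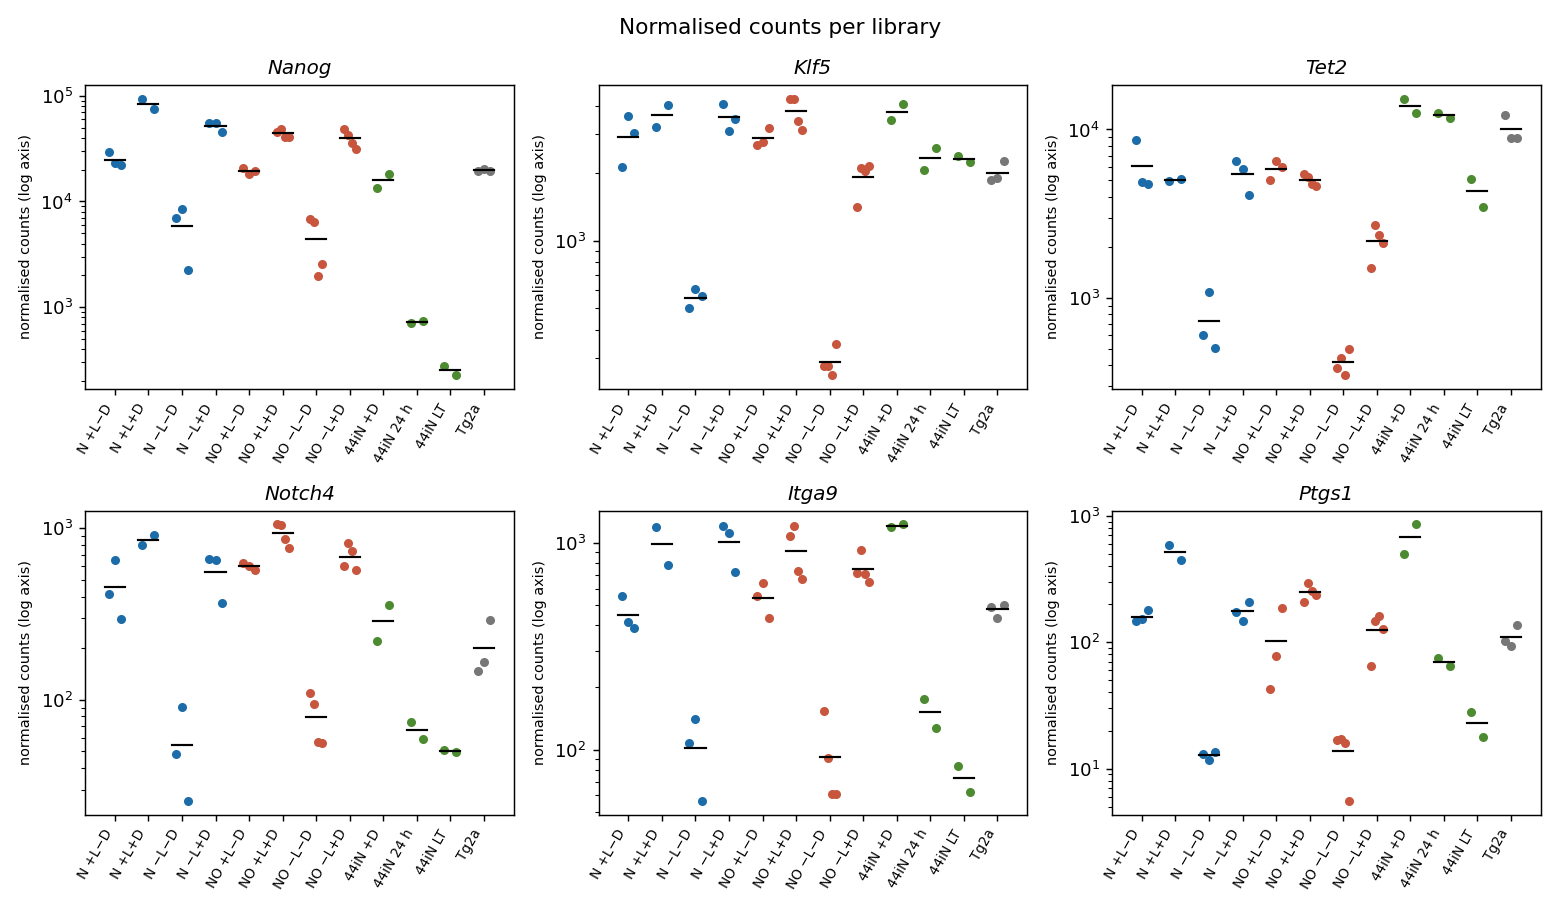
Normalised counts on a log axis of 6 genes in each of the 35 libraries (points) with group means (bars), for Nanog SunTag (N), Nanog/Otx2 SunTag (NO), 44iN and Tg2a cells, with L for LIF, D for Dox, 24 h for 24 h without Dox and LT for long-term culture without it. Notch4, Itga9 and Ptgs1 are low both without LIF and Dox and in 44iN cells without Dox, whereas Klf5 and Tet2 are lowest in the SunTag groups without LIF and Dox.

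Several genes need care in counting. 2810453I06Rik is annotated under a pair of overlapping identifiers on the same strand, and its values ran from 0 to 784 over the libraries, with 455, 1.68 and 132 in the +LIF −Dox Nanog SunTag libraries. It failed the filter on low counts used for the reported tests, although it passed others in Nanog/Otx2 cells, and no fold is given for it. BC096441 overlaps Tnfsf12 and Tnfsf13, and Tex14 overlaps several small RNA genes on its strand. Gm14444 lies in a cluster of closely related zinc finger genes, between which reads may be split.

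The letters TTCNNNGAA, the core of a STAT site, were searched on both strands in the RefSeq promoters (250 bases before to 50 after a start, GRCm38.p6) of 20 of the 33 genes that matched by symbol. They were found in 1 of the 20, against 9.55% of 27025 genes. AAGGTCA, the core recognised by Esrrb, was in 1 of the 20 and in 5.38% of genes, and the octamer ATGCAAAT in 0 and in 1.97%. A longer distance was not searched.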

How the data were processed

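Poly(A) RNA-seq tables covering 35 libraries of mouse ES cells were used as deposited. The estimated counts were made by the authors, who aligned stranded reads to mm9 with STAR and quantified genes with RSEM, and were deposited as whole numbers. CASAVA 1.8 is also named in the submitters' processing notes. The second deposited table holds a signal, the estimated counts divided by a DESeq2 size factor per library, called normalised counts here. The 3 libraries in 2i and the ChIP-seq and ATAC-seq data were not used here.

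A gene was tested if some condition had no library below 10 normalised counts for it. Tests were made on the estimated counts by edgeR 4.0.16 (R 4.3.3; TMM, quasi-likelihood, Benjamini-Hochberg over all genes tested, threshold 0.05). Models were Nanog/Otx2 cells with LIF, Dox and their interaction (15 libraries), 44iN cells with and without Dox (4) and long-term 44iN against Tg2a cells (5). Standard errors are the fold change over the root of the F statistic, and cover these libraries only. Alternatives were DESeq2 1.42.0, its size factors in edgeR, other filters, replicate blocks, joint fits and each library left out. Python 3.11.15, pandas 2.3.3, numpy 2.4.6 and matplotlib 3.10.9 handled the tables.

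The genes, lists and comparisons were chosen with earlier results of these data known. Genes named were the targeted genes, members on a fixed list, the 12 with the highest means, the 3 largest changes per direction and comparison, the 3 highest and lowest shares kept in Nanog/Otx2 cells and those next to a threshold. Further genes named in the text were chosen after their values were seen. Values of 1 gene of the set, counted in the totals, are not reported here.

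In Nanog/Otx2 cells the numbers pair libraries by cell line. Deviations from the group means, correlated over genes, gave an average r of 0.26 for the 21 pairs with the same clone and number (lowest 0.103) and −0.09 for the others. By clone alone, number ignored, the average was 0.20 for 42 pairs of the same clone and −0.20 for the others. For 1 of the 15 libraries, +LIF −Dox of C2ON3, the title and the column name give different numbers. The title's was used, and with the other number the average was 0.27 (lowest 0.115).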

Additional observations from a re-analysis of the deposited data

Results flagged for a closer look

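In the 3 groups of Nanog/Otx2 cells with 4 libraries, 99 combinations of gene and group were examined for a library that stood apart from the other 3, and 5 were found, where chance gives about 1 in 20. Klf5 had 1409.6 normalised counts in −LIF +Dox library C1ON3-1, and between 2040.0 and 2156 in the others. Tex14 had 530.1 in the same library, and between 857 and 908 in the others. Tfpi had 1204 in −LIF +Dox library C1ON3-2, against 1027 to 1054. Ptgs1 had 5.56 in −LIF −Dox library C2ON3-2, against 15.8 to 17.2. 2810453I06Rik had 599 in +LIF +Dox library C1ON3-1 and 0 in the others.

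The response to Dox differed between cells with and without LIF for 26 of the 32 genes by the interaction term.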

How the results depend on the processing

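In Nanog/Otx2 cells the numbers of genes lower after LIF withdrawal (31 to 32), higher with Dox without LIF (27 to 31), lower than in LIF (14 to 19) and with an interaction (25 to 28) stayed within 1.5 times of those reported under all 8 other fits, and 31, 27 to 29, 12 to 17 and 22 to 28 were called when each library was left out. For Dox with LIF, 15 genes changed with the clone and 16 with the clone and number as a replicate block, against 8, and 18 with the number of the column name, an alternative chosen after seeing the data, and 3 to 10 with a library left out. Of all 15609 genes tested, 5831, 6401 and 6519 changed under these blocks, against 3577. These blocks changed no other number of genes of the set in Nanog/Otx2 cells by over 1.5 times. In 44iN cells 0 genes were called, 8 in DESeq2, 10 without a filter, 14 with the number as a replicate block, 6 in the fit of 9 libraries and 4 to 17 with a library left out. Same-numbered 44iN libraries share only a number (mean correlation 0.46). With 2 libraries a group, the value of the other pairs (−0.46) is fixed by it and is no separate comparison. For long-term cells 12 to 19 were called against 13 (Nanog included), and 8 to 18 with a Tg2a library left out. The 19 came from the blocked fit, in which 2645 of all 14937 genes tested were lower, against 785 as reported. Leaving out a long-term library leaves a group of 1. The set itself held 71 genes with at most 1/3 left, 17 with 1/5, 51 with 0.6 kept, and 27 to 39 with a library left out. The cause of these changes was not tested, apart from the wider or narrower criteria. DESeq2's size factors moved the median of all genes by less than 0.1.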
